A study of Mus musculus with 2 samples.

Results

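Bmi1, Hopx, Mex3a and Msi1 were chosen by name as genes reported to mark reserve stem cells, and they are 4 of the 31053 genes counted. Their raw transcript counts were taken in each cell that the authors listed, and summed over each of the authors' 12 cell classes in each library. The enteroendocrine classes were set beside the stem cell class, ISC. All 4 genes passed the filter on low counts, in which 10994 genes were tested.

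The intestinal crypt holds cycling stem cells at its base, marked by Lgr5 and Olfm4. Reserve stem cells are a proposed, slowly dividing population that can refill the crypt after injury, and in the mouse they have been traced with reporter alleles of genes such as Bmi1 and Hopx. Cells of the enteroendocrine lineage, which make hormones and leave the cell cycle, have also been found among cells labelled by such reporters, so where the transcripts lie among crypt cell classes bears on what the markers label.

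Both libraries came from Tom+ crypt cells of the ileum of wild-type Atoh1CreER-T2;R26RTom mice, prepared as 10x Genomics 3′ single-cell libraries. The mice received 2 intraperitoneal doses of tamoxifen at 1 mg/mL, 24 h apart, and crypts were taken 12 h after the second. The Cre is driven by Atoh1, the transcription factor of the secretory lineage, so the cells sorted, ISC included, are those in which that allele had been active, with their progeny. Age, sex and the number of mice behind each library were not stated. The p-values measure the spread left between these 2 libraries after the mean difference between them was fitted, estimated over all 12 classes. That spread may be technical.

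Replicate 1 held 5305 listed cells with 32656481 transcripts counted by unique molecular identifier (UMI), and replicate 2 held 6257 cells with 27014983. The median cell had 5706 and 3503 UMIs, and 12 barcodes of listed cells occurred in both libraries. EEC-PRE, EC and NON-EC, together the enteroendocrine classes, had 130, 125 and 215 cells, and ISC had 2292. Summed marker transcripts were highest, in both libraries, in the class each name points to for EEC-PRE (Neurog3, Neurod1, Pax4, Insm1), EC (Tph1, Tac1, Chga, Chgb), NON-EC (peptide hormones), TUFT (Dclk1, Trpm5, Pou2f3, Avil, Il25) and ISC (Lgr5, Olfm4, Ascl2, Smoc2, Slc12a2, Axin2). CPM are UMIs scaled to the same library total, for Chga also by TMM, a normalization for library composition. Chga, a secretory granule protein, averaged 2483 and 1435 CPM over the 3 enteroendocrine classes in replicates 1 and 2. In ISC it had 3.05 and 11.8 CPM. Markers of mesenchyme, endothelium, leukocytes, erythroid cells and neurons or glia summed to at most 46.3 CPM without TMM in any class and library. The highest was 6 Pecam1 UMIs in EC of replicate 1. The authors made the classes from the same transcripts, so tests between classes describe them and are not independent evidence.

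The loci are given on mm10, the build of the deposited counts, with GENCODE M21 annotation. Bmi1 (ENSMUSG00000026739) lies on chromosome 2 from 18677018 to 18686629, plus strand, and starts 787 bases beyond the end of Commd3. Hopx (ENSMUSG00000059325) lies on chromosome 5 from 77086988 to 77115121, minus strand, and overlaps the antisense gene Hopxos. Mex3a (ENSMUSG00000074480) lies on chromosome 3 from 88532395 to 88541396, plus strand, with Mir1905 inside it on the other strand. Msi1 (ENSMUSG00000054256) lies on chromosome 5 from 115429599 to 115455698, plus strand, and holds the antisense gene 4930430O22Rik. No source used here gives the strand setting of the counting, so reads of these overlapping pairs may be shared. Hopxos had 43 UMIs in listed cells against 6120 of Hopx, and 4930430O22Rik had none.

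Promoter windows were matched in RefSeq (GRCm38.p6) for 3 of the 4 genes, 250 bases before to 50 after each annotated start. They are printed with every CANNTG in capitals. CANNTG is the E-box, the letters that basic helix-loop-helix factors as a family are known to bind, and it reads the same on both strands. Which factor of the family a given E-box binds was not tested. The Bmi1 window is chr2:18676768-18677067 on the plus strand. The Hopx windows are chr5:77115074-77115373 for the upstream start and chr5:77095218-77095517 for the inner start, both on the minus strand. The Mex3a window is chr3:88531696-88531995 on the plus strand.
Bmi1: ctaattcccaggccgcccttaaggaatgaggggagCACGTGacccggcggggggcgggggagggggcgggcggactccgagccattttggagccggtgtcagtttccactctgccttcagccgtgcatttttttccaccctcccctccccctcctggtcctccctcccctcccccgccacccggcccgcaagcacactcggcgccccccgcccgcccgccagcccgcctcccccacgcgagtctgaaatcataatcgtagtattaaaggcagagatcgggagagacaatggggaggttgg
Hopx upstream start: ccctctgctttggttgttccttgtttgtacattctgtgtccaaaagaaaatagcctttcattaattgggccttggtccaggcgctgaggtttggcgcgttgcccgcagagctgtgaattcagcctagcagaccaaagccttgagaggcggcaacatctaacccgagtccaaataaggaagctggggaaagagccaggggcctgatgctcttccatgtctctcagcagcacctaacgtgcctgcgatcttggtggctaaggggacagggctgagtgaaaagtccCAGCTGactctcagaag
Hopx inner start: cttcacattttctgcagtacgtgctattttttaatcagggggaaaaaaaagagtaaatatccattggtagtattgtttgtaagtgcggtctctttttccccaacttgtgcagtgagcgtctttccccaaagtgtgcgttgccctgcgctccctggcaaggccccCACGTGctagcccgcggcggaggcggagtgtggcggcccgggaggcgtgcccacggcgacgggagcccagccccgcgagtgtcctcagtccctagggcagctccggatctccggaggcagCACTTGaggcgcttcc
Mex3a: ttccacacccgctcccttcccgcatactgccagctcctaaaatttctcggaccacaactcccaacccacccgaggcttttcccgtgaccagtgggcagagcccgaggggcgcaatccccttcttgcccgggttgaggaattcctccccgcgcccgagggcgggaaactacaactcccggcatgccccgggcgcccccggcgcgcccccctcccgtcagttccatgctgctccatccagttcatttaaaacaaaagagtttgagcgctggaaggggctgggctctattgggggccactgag
The Bmi1 window held 1 E-box, the upstream Hopx window 1 and the inner Hopx window 2, and the Mex3a window held none. Of all 32851 windows of 300 bases, 72.3% held at least 1 E-box and 39.6% held 2 or more. None of the 4 windows held TATAAA on either strand, which 13.6% of all windows did. CG dinucleotides numbered 23 in Bmi1, 8 and 21 in the upstream and inner Hopx windows and 20 in Mex3a, beside a median of 7 over all windows. These are letters in a window, not measured binding.

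All 4 genes were higher in the enteroendocrine classes than in ISC when the 3 classes were weighted equally. Bmi1 was 3.82-fold higher, Mex3a 3.60-fold, Hopx 2.40-fold and Msi1 2.14-fold. In cells thinned to 2000 UMIs each, the calls of Mex3a and Msi1 were lost (adjusted p 0.107 and 0.149). These are 4 of 4 genes beside 27.4% of all 10994 genes called higher in that comparison, by edgeR's quasi-likelihood test at an adjusted p under 0.05. Crypt base genes went the other way, with Lgr5, the receptor of the cycling stem cell, at 12.2 and 3.57 CPM in the enteroendocrine classes of replicates 1 and 2 and 59.3 and 36.3 CPM in ISC. Levels below are CPM scaled by TMM, a normalization for library composition, and are given for replicate 1 and then replicate 2.

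Bmi1 codes for a subunit of Polycomb repressive complex 1, which keeps genes such as the cell cycle inhibitor Cdkn2a silent. It stood at 79.1 and 40.6 CPM in EC, 62.4 and 32.8 CPM in NON-EC and 43.9 and 22.8 CPM in EEC-PRE, against 13.2 and 10.7 CPM in ISC. In each enteroendocrine class both libraries lay above both ISC values. The EEC-PRE values rest on 13 and 5 UMIs. In replicate 2 their 95% interval of counting error, 9.19 to 66.1 CPM without TMM, covered that of ISC, 11.2 to 16.6. The log2 difference from ISC was 2.25 ± 0.42 (SE) in EC, 2.02 ± 0.32 in NON-EC and 1.54 ± 0.45 in EEC-PRE, with adjusted p of 8.93e-06, 1.23e-07 and 0.00675 (edgeR). TUFT, the chemosensory cells, came next at 18.7 and 13.5 CPM, and its log2 difference of 0.47 ± 0.38 was not called (adjusted p 0.391). The other 7 classes averaged between 11.3 CPM in PANETH and 5.00 CPM in GOBLET-PRE. Within the order of levels, the 3 enteroendocrine classes overlapped one another, EEC-PRE lay above TUFT in every library and TUFT above ISC. Each class from ISC down overlapped its neighbour. This order takes no account of counting error, and the TUFT values rest on 15 and 7 UMIs.

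Hopx codes for a small homeodomain protein that does not bind DNA. Its level was 407 and 233 CPM in EC, 216 and 224 CPM in EEC-PRE and 235 and 166 CPM in NON-EC, against 131 and 72.2 CPM in ISC. Every enteroendocrine value lay above both ISC values. The log2 differences were 1.67 ± 0.17 in EC, 1.11 ± 0.18 in EEC-PRE and 1.01 ± 0.15 in NON-EC, all called by edgeR, with adjusted p of 2.20e-13, 4.82e-07 and 3.33e-08. Hopx was found in every class. TUFT had 258 and 131 CPM, and SEC-PRO, GP and the Paneth classes stayed within 76.9 to 181 CPM. The low end was ENTERO-PRO at 39.7 and 21.0 CPM and GOBLET at 29.7 and 12.4 CPM, the GOBLET values resting on 3 and 2 UMIs. Hopx was higher in replicate 1 in 11 of 12 classes, EEC-PRE being the exception. Without a term for the library, the EEC-PRE and NON-EC calls were lost (adjusted p 0.137 and 0.111).

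Mex3a, an RNA-binding protein with ubiquitin ligase activity, marks a slowly dividing subset of Lgr5+ cells in the mouse. It peaked in EEC-PRE, the class of Neurog3, at 81.0 and 82.2 CPM, against 8.40 and 7.58 CPM in ISC. The log2 difference was 3.43 ± 0.38 (adjusted p 7.10e-12, edgeR), or 10.8-fold, and no other class overlapped EEC-PRE. EC had 12.2 and 22.2 CPM and NON-EC 10.4 and 18.7 CPM, both above ISC in each library, but their log2 differences of 1.21 ± 0.66 and 0.90 ± 0.52 were not called (adjusted p 0.168 and 0.164). They rest on 8 and 13 UMIs. TUFT had 21.2 and 28.9 CPM, a called log2 difference from ISC of 1.69 ± 0.39 (adjusted p 0.000379) that was 0.99 and not called in thinned cells (adjusted p 0.253). The gene was near absent from the goblet side, at 0.396 and 0.724 CPM in GOBLET-PRE.

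Msi1 codes for Musashi-1, an RNA-binding protein that represses translation of Numb. Its level was 20.3 and 22.8 CPM in EEC-PRE, 12.5 and 30.4 CPM in NON-EC and 18.2 and 22.2 CPM in EC, against 9.93 and 9.97 CPM in ISC. The 3 classes lay above ISC in both libraries, but none of them was called alone: log2 differences were 1.14 ± 0.59, 1.10 ± 0.47 and 1.05 ± 0.64, with adjusted p of 0.160, 0.0505 and 0.221 (edgeR). The call came from the 3 classes together, at 1.10 ± 0.36 (adjusted p 0.00956). That call was lost with DESeq2 (adjusted p 0.0829), with TMM factors over all genes (0.0514) and in cells thinned to 2000 UMIs (0.149). TUFT had 34.9 and 13.5 CPM, a called log2 difference of 1.44 ± 0.38 (adjusted p 0.00207) that was 0.43 in replicate 2 alone and was not called in thinned cells (adjusted p 0.0718).

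**Figure D1:**
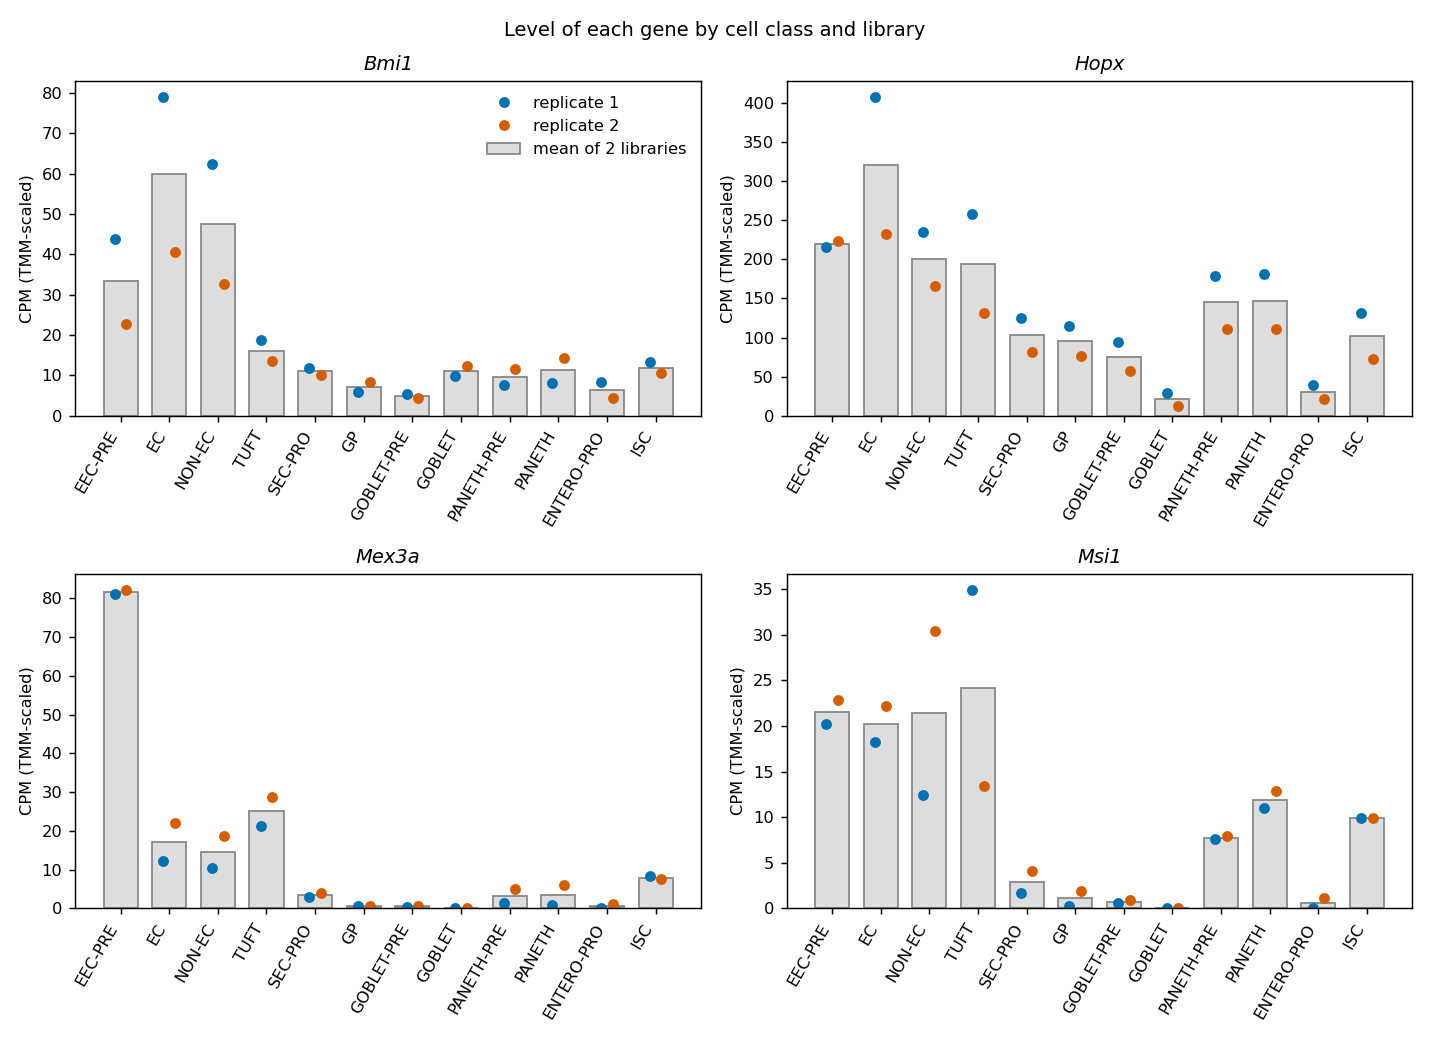
Level of each gene in TMM-scaled CPM (y axis) by cell class (x axis). Grey bars are means of the 2 libraries and points are the libraries. By the mean, Bmi1 is highest in EC, NON-EC and EEC-PRE, Hopx in EC and Mex3a in EEC-PRE. The mean of Msi1 is highest in TUFT, with the 3 enteroendocrine classes next. In replicate 2 alone, Msi1 in TUFT lies below all 3 of them.

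For the mean of the 3 enteroendocrine classes, the log2 difference was 1.94 ± 0.26 for Bmi1 (adjusted p 8.90e-10), 1.85 ± 0.37 for Mex3a (1.65e-05) and 1.26 ± 0.12 for Hopx (4.21e-16), by edgeR. In thinned cells the Mex3a value was 1.22 and was not called (adjusted p 0.107). Within single libraries it was 2.18 and 1.54 for Bmi1, 1.37 and 2.09 for Mex3a, 1.07 and 1.51 for Hopx and 0.74 and 1.32 for Msi1, all positive. The median of all genes in this contrast was 0.15 and moved to -0.18 with TMM factors over all genes, where 1890 genes were called higher and 3225 lower, in place of 3011 higher and 2060 lower. Relative to the median of all genes, Bmi1 stood 1.79 above it, Mex3a 1.70, Hopx 1.11 and Msi1 0.95 on the log2 scale, and 1.78, 1.70, 1.11 and 0.96 with TMM factors over all genes. In bulk-like sums, fewer cells with the transcript and less transcript per cell cannot be told apart, so shares of cells follow below.

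By single class, 3 of 4 genes were called higher in EEC-PRE (13.6% of all genes), 2 of 4 in EC (20.8%) and 2 of 4 in NON-EC (27.9%). In TUFT 3 of 4 were called higher, beside 15.4% of all genes, with Hopx at a log2 difference of 0.97 ± 0.14 (adjusted p 1.04e-08), a call lost without a term for the library (0.148). TUFT also held 22 and 11 UMIs of Ptprc, which tuft cells are known to express, and none of the other 5 leukocyte markers. The part of other cells in these results was not tested.

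Away from the enteroendocrine and tuft classes the genes separated. In SEC-PRO, the dividing secretory progenitors, Mex3a and Msi1 were lower than in ISC (2 of 4 genes, beside 15.3% of all genes), at log2 differences of -1.13 ± 0.36 and -1.79 ± 0.37 (adjusted p 0.00860 and 5.01e-05, edgeR). The Msi1 value was -1.27 in replicate 2 alone and -2.48 in replicate 1 alone. Bmi1 and Hopx had 11.8 and 10.2 CPM and 125 and 81.9 CPM there, and neither was called. In GP, Bmi1, Mex3a and Msi1 were lower, 3 of 4 genes beside 28.8% of all genes, with Mex3a at 0.762 and 0.647 CPM and Msi1 at 0.254 and 1.94 CPM. The Bmi1 call in GP, at -0.77, was lost without a term for the library (adjusted p 0.0727) and in thinned cells (0.192). Hopx in GP was 114 and 76.9 CPM and was not called. All 4 were lower in GOBLET-PRE, beside 36.2% of all genes, from -0.40 ± 0.11 for Hopx to -3.76 ± 0.43 for Mex3a on the log2 scale, the Hopx call being lost without a term for the library (adjusted p 0.459).

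In GOBLET, the mature goblet class, Hopx was called lower (1 of 4 genes, beside 13.7% of all genes), at -2.31 ± 0.49 (adjusted p 7.67e-05), or 0.114 without a term for the library. Mex3a and Msi1 had no UMI in either library of GOBLET, which allows up to 19.5 and 12.9 unscaled CPM and so levels as high as in ISC. In ENTERO-PRO, the enterocyte progenitors, Hopx, Mex3a and Msi1 were lower, 3 of 4 genes beside 18.4% of all genes, and Mex3a and Msi1 each had 0 UMIs in replicate 1 and 1 in replicate 2. The Msi1 call there was lost in thinned cells (adjusted p 0.0813).

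In the Paneth classes the fitted values moved with the scaling, the TMM factors of PANETH being 0.229 and 0.256. With TMM, Hopx was called higher in PANETH (1 of 4, beside 24.5% of all genes) at 0.55 ± 0.13 and in PANETH-PRE (1 of 4, beside 21.6%) at 0.54 ± 0.12. With library size alone these values were -1.84 and -0.02, while the median of all genes moved by -2.34 in PANETH and by -0.55 in PANETH-PRE. Relative to that median Hopx stood 0.57 above it in PANETH and 0.62 above it in PANETH-PRE with TMM, and 0.52 and 0.62 above it with library size alone. Both calls were lost without a term for the library (adjusted p 0.371 and 0.385) and in thinned cells (0.630 and 0.292), where Hopx in PANETH was -0.23. Mex3a was called lower in PANETH-PRE (1 of 4, beside 24.7% of all genes) at -1.26 ± 0.52 (adjusted p 0.0381), a value of -2.56 in replicate 1 alone and -0.58 in replicate 2 alone. That call was lost with no filter (adjusted p 0.0582), without a term for the library (0.0562) and in thinned cells (0.0838).

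**Figure D2:**
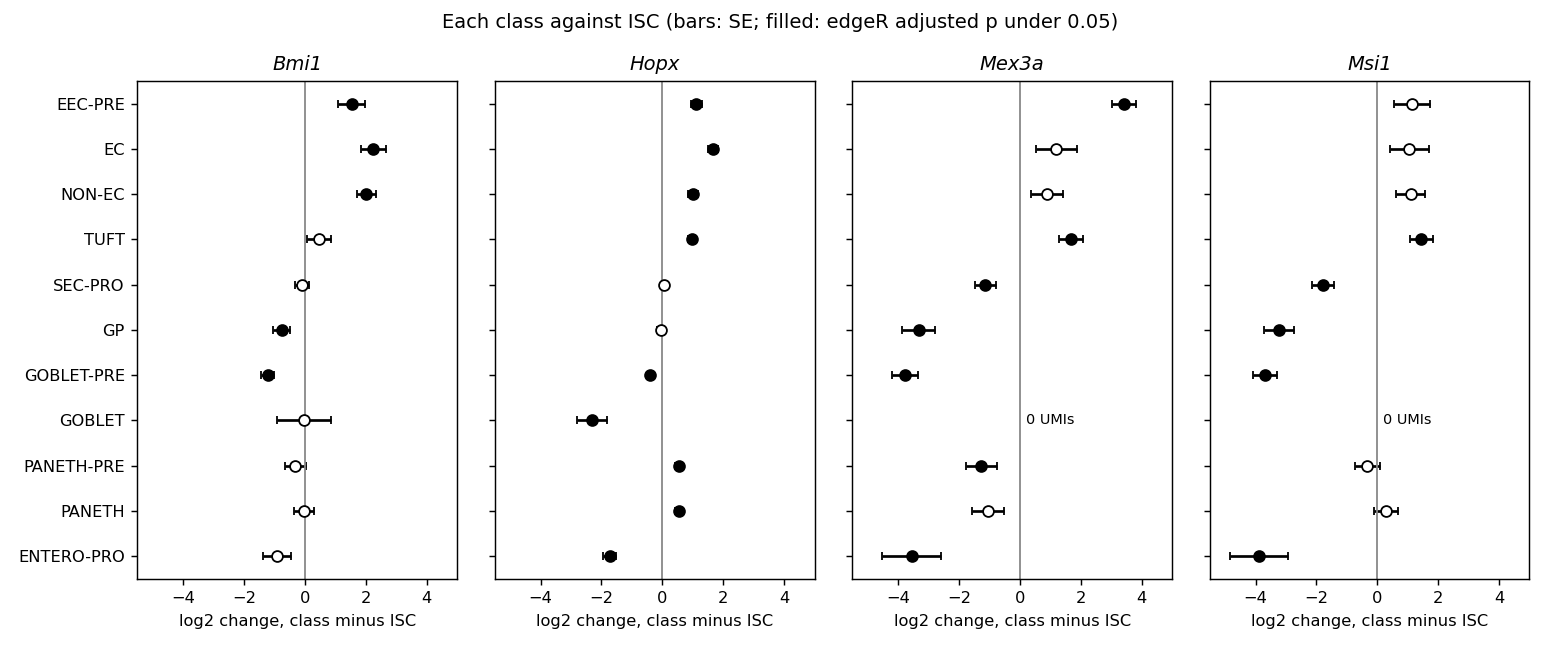
Log2 difference of each class from ISC (x axis) for the 4 genes, by class (y axis). Points are edgeR estimates over 2 libraries, bars are SE and filled points have an adjusted p under 0.05. The enteroendocrine classes and TUFT lie right of 0 for all 4 genes, and Mex3a and Msi1 lie below -3 in GOBLET-PRE, GP and ENTERO-PRO. No point is drawn for Mex3a and Msi1 in GOBLET, which had 0 UMIs of either.

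Most transcripts of these genes nevertheless lay outside the enteroendocrine classes. The 3 classes held 4.07% of listed cells and 2.44% of UMIs, and 14.6% of Bmi1, 6.98% of Hopx, 23.7% of Mex3a and 12.7% of Msi1 UMIs. ISC held 19.8% of cells and 17.9% of UMIs, and 26.3% of Bmi1, 19.8% of Hopx, 39.8% of Mex3a and 44.0% of Msi1 UMIs. All counts were small: the libraries held 317 and 272 Bmi1 UMIs, 3978 and 2142 of Hopx, 108 and 158 of Mex3a and 124 and 183 of Msi1.

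To compare shares of cells at 1 depth, each cell was thinned to 2000 UMIs, which kept 182 of 202 and 171 of 268 enteroendocrine cells, and 515 of 553 and 1555 of 1739 ISC, in replicates 1 and 2. Shallower cells were left out. Bmi1 was found in 10.4% and 8.19% of enteroendocrine cells, against 2.52% and 3.02% of ISC. GOBLET-PRE, the class with the lowest mean CPM of Bmi1, had 1.20% and 1.09%. PANETH had 0.922% and 0.775%, and ENTERO-PRO had 0 of 93 cells, which allows up to 3.23%, and 0.658%. The exact (Clopper-Pearson) 95% interval for ISC was 1.35 to 4.28% in replicate 1 and 2.23 to 4.00% in replicate 2, and for EEC-PRE 5.37 to 24.9% and 2.42 to 20.8%. These intervals cover counting error only.

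Hopx was found in 42.3% and 43.3% of thinned enteroendocrine cells, against 28.5% and 17.6% of ISC. Without thinning the shares were 58.4% and 47.4%, against 57.3% and 31.5% of ISC, whose median depth of 5825 and 3973 UMIs exceeded that of EEC-PRE (3897 and 2157). ENTERO-PRO, a class low in Hopx, had 9.68% and 2.63% after thinning. Mex3a was found in 7.14% and 8.19% of enteroendocrine cells, against 3.30% and 2.25% of ISC, and EEC-PRE led at 13.0% and 17.4%. In EC it was 5.88% and 0%, with 2 of 34 and 0 of 47 cells. Msi1 was found in 4.40% and 6.43% of enteroendocrine cells, against 3.30% and 2.77% of ISC, and in 10.0% and 2.30% of TUFT. The enteroendocrine shares of Msi1 rest on 8 of 182 and 11 of 171 cells. Without thinning they were 6.93% and 8.21%, against 6.69% and 5.18% of ISC.

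Free RNA can add UMIs to cells that do not express a gene. In barcodes with at most 50 UMIs, taken as free RNA, Bmi1 had 9.93 and 9.43 CPM, Hopx 75.3 and 62.6, Mex3a 4.14 and 6.0 and Msi1 9.93 and 6.0. Unscaled levels in ISC were 16.5 and 13.7 CPM for Bmi1, 163 and 92.4 for Hopx, 10.5 and 9.71 for Mex3a and 12.4 and 12.8 for Msi1. From the genes abundant in free RNA but scarce in a class, free RNA was at most 5.30% and 5.49% of the UMIs of ISC, and at most 8.66% of those of any class and library. In GOBLET-PRE, of similar depth, thinned shares were 0.133% and 0.0776% for Mex3a and the same for Msi1, so the ISC and enteroendocrine shares of these genes lay above the level of a class that nearly lacked them. When free RNA was taken off before the fit, no enteroendocrine call of the 4 genes changed. The corrected sums were rounded to whole UMIs, however. The enteroendocrine sums of Bmi1, Mex3a and Msi1 were too small to lose any. For these genes the part of free RNA in the enteroendocrine classes was therefore not tested.

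**Figure D3:**
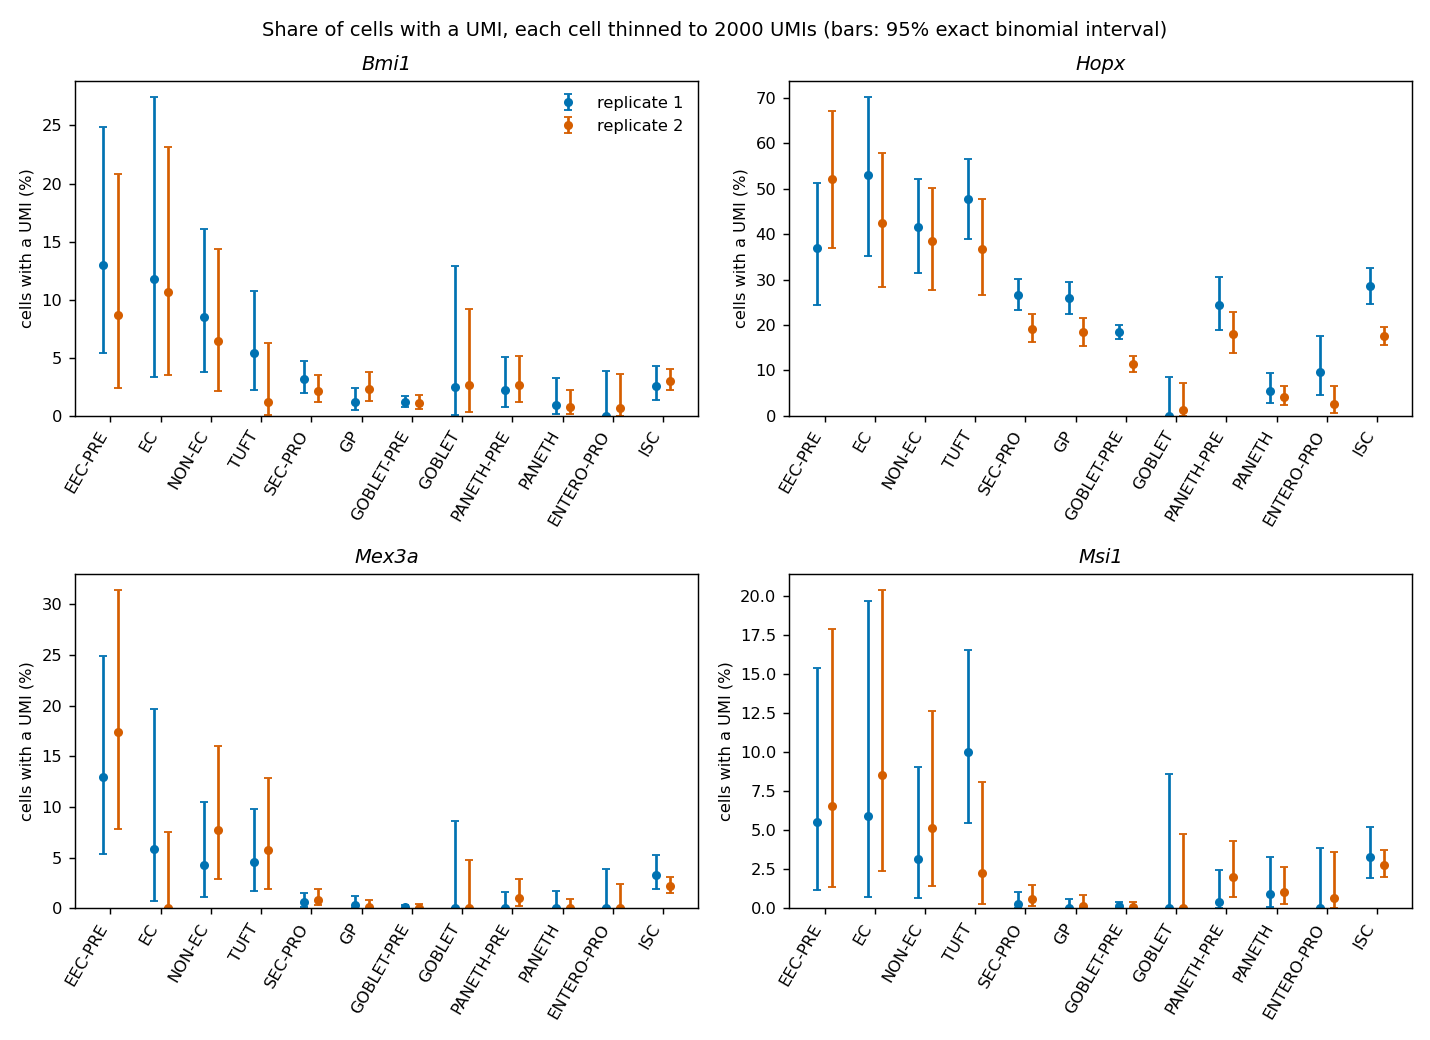
Share of cells with at least 1 UMI of each gene (y axis, percent) by class (x axis), each cell thinned to 2000 UMIs. Points are libraries and bars are exact 95% binomial intervals. Mex3a stands highest in EEC-PRE at 13.0% and 17.4%, and ISC shares of Bmi1, Mex3a and Msi1 lie between 2.25% and 3.30%.

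Within ISC few cells held more than 1 of the 4 transcripts. After thinning, 33.0% and 23.9% of ISC had at least 1 of them, mostly Hopx, while 20 and 24 cells had 2 and 2 and 1 cells had 3. The unthinned shares with at least 1 were 63.1% and 40.1%. No thinned ISC had all 4, and 2 and 1 unthinned cells did. Hopx and Mex3a occurred together in 10 and 3 thinned ISC, beside 4.85 and 6.14 given by the product of their shares, above it in replicate 1 and below it in replicate 2. Hopx and Msi1 occurred together in 8 and 14 cells, beside 4.85 and 7.55, and Bmi1 and Mex3a in 0 and 1, beside 0.429 and 1.06. These counts are descriptions, since cells of 1 library are not replicates.

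Reserve stem cells are described as slowly dividing, so thinned ISC were split by transcripts of the cycle. Bmi1 UMIs occurred in 1.91% and 3.40% of ISC with an Mki67 UMI and in 2.94% and 2.75% of those without. Hopx was found in 26.8% and 17.6% with and 29.7% and 17.5% without, and Msi1 in 3.35% and 2.78% with and 3.27% and 2.75% without. The exact 95% intervals of these pairs overlapped in both libraries. Mex3a was found in 2.87% and 1.24% of ISC with an Mki67 UMI and in 3.59% and 2.97% without, also with overlapping intervals in both libraries.

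A UMI of any of 12 proliferation genes was present in 442 of 515 and 1383 of 1555 thinned ISC. The Mex3a share was 2.71% and 1.81% among these, against 6.85% and 5.81% among the rest, where it was found in 5 of 73 and 10 of 172 cells. The intervals overlapped in replicate 1 (1.41 to 4.69% with, 2.26 to 15.3% without) and not in replicate 2 (1.17 to 2.66% with, 2.82 to 10.4% without). Thinned ISC that held an enteroendocrine UMI numbered 44 of 515 and 166 of 1555. With them left out, the Mex3a share was 2.94% and 1.77% in cells with a proliferation UMI, against 6.35% and 4.17% in cells without. The latter rest on 4 of 63 and 6 of 144 cells. The direction stayed the same in both libraries, and the intervals overlapped in both. Fewer cells also widen an interval, so the overlap does not show what the cells left out contributed.

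Split by Lgr5 instead, the Mex3a share was 5.80% and 5.56% in cells with an Lgr5 UMI, against 2.91% and 1.91% in cells without. The Lgr5 shares rest on 4 and 8 cells with Mex3a, and the intervals overlapped in both libraries. Msi1 was found in 2.90% and 6.25% with and 3.36% and 2.41% without, in opposite directions in the 2 libraries. Bmi1 and Hopx shares were higher with Lgr5 in both, Hopx at 33.3% and 19.4% with and 27.8% and 17.4% without, with overlapping intervals. These splits have 2 libraries and a few cells in each share, and no test was made.

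**Figure D4:**
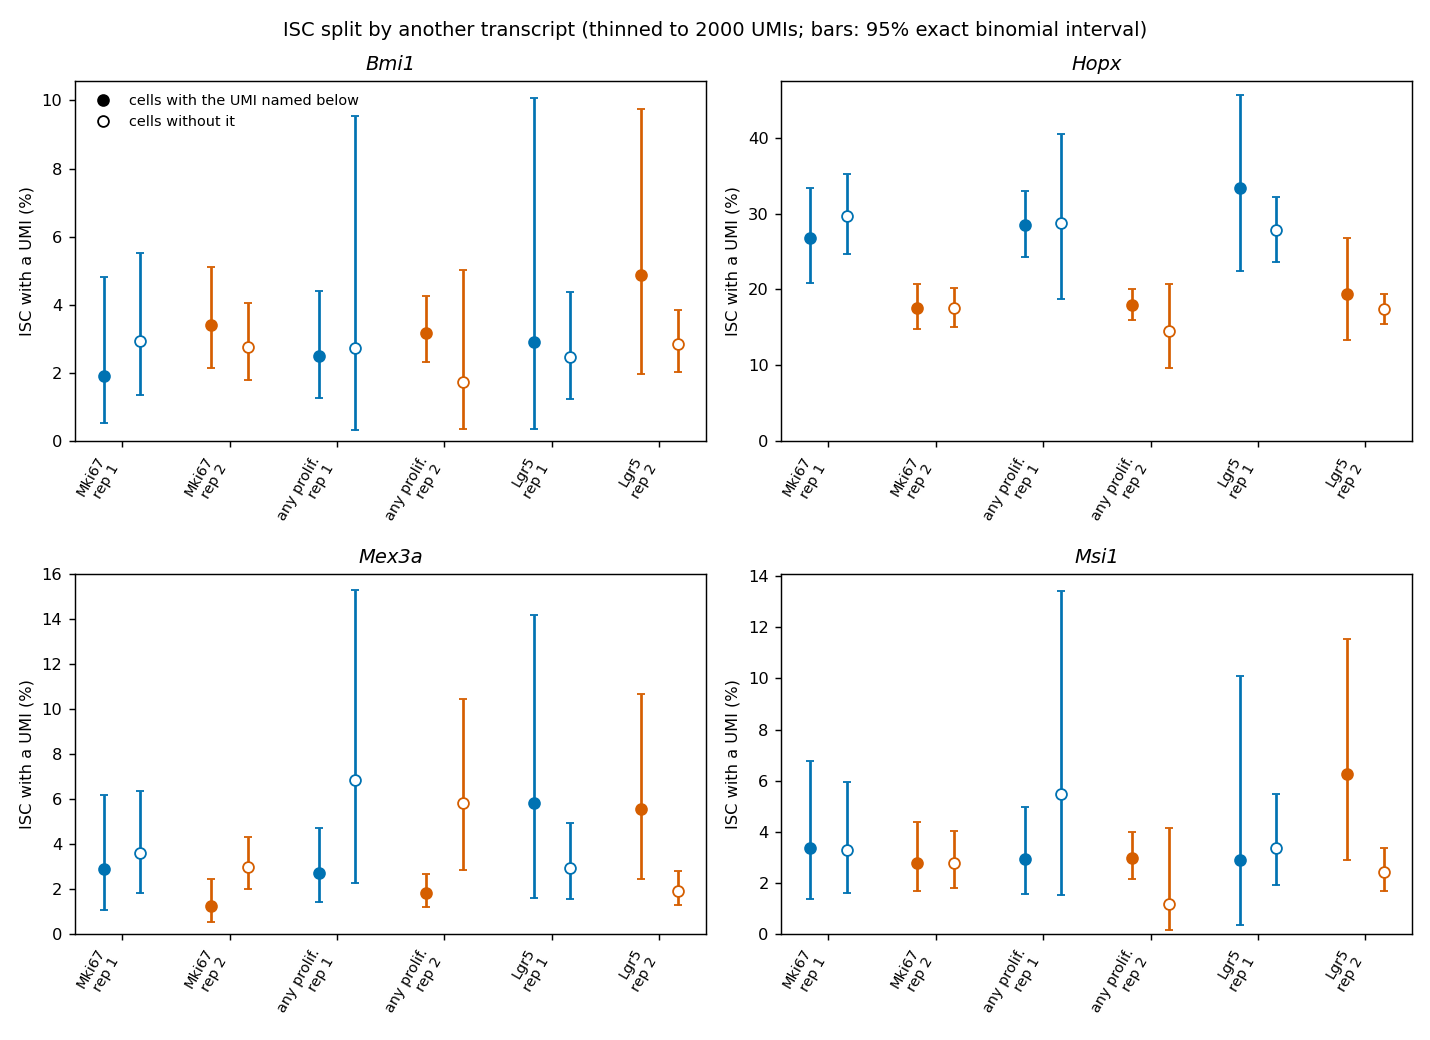
Share of thinned ISC with a UMI of each gene (y axis, percent), split by a UMI of Mki67, of any proliferation gene or of Lgr5, in each library (x axis). Filled points are cells with that UMI, open points cells without, and bars exact 95% binomial intervals. Mex3a shares lie lower in cells with a proliferation UMI and higher in cells with an Lgr5 UMI, in both libraries, and all these Mex3a intervals overlap except for any proliferation gene in replicate 2.

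When the 470 enteroendocrine cells are set beside ISC, the partners of Bmi1 can be read from the same fit. Of 17 other genes of Polycomb repressive complex 1, 16 were tested: 9 were higher, 0 lower and 7 not called, with a median log2 difference of 1.35 beside 0.15 over all genes. Over all genes in this comparison, 27.4% were called higher and 18.7% lower, the background of each list count for the same comparison that follows. Rybp, an alternative subunit, had 153 and 113 CPM in the enteroendocrine classes and 21.9 and 24.1 CPM in ISC. Cbx6, a reader of methylated histone H3, had 40.2 and 60.3 CPM in the enteroendocrine classes and 10.7 and 13.4 CPM in ISC. Phc1, a Polyhomeotic subunit, had 11.8 and 15.4 CPM in the enteroendocrine classes and 0.255 and 3.53 CPM in ISC. The smallest calls were Rnf2, the catalytic ubiquitin ligase, at 1.30 ± 0.32, Pcgf3 at 1.41 ± 0.17 and Phc2 at 1.45 ± 0.21. By single class, 3 of 16 were higher in EEC-PRE, beside 13.6% of all genes. In EC 8 of 16 were higher, beside 20.8%, and in NON-EC 9 of 16, beside 27.9%, with 0 lower in each class.

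Of 9 genes of Polycomb repressive complex 2, 8 were tested, with 5 higher (beside 27.4% of all genes), 1 lower (beside 18.7%) and 2 not called, and a median of 0.56. Ezh2, the methyltransferase of dividing cells, was lower at -0.47 ± 0.15 (adjusted p 0.00698, edgeR), while its relative Ezh1 was higher at 0.73 ± 0.25 (adjusted p 0.0114). Phf1 at 2.33 ± 0.58 and Jarid2 at 1.37 ± 0.16 were the largest, and Mtf2 and Aebp2 were higher at 0.62 ± 0.19 and 0.51 ± 0.20. By single class, 2 of 8 were higher in EEC-PRE (beside 13.6% of all genes), 2 in EC (20.8%) and 3 in NON-EC (27.9%). These shares were nearer those of all genes, and EC and NON-EC each had 1 lower. With TMM factors over all genes the median of the contrast for the mean of the classes dropped by 0.33, and list values move with it. Of the targets of Bmi1 at the Ink4 locus, Cdkn2b was tested and not called, at 7.57 and 7.10 CPM in the enteroendocrine classes and 9.16 and 11.5 CPM in ISC.

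Of 4 relatives of Msi1 and Mex3a, 3 were higher, beside 27.4% of all genes, and 1 was not called, with a median of 2.01. Msi2, the second Musashi protein, had 175 and 159 CPM in the enteroendocrine classes and 41.7 and 40.0 CPM in ISC (2.01 ± 0.14, adjusted p 1.70e-22, edgeR). Mex3b was higher at 3.87 ± 0.61 and Mex3d at 2.01 ± 0.55, while Mex3c, at 28.6 and 23.1 CPM in the enteroendocrine classes and 22.9 and 22.7 CPM in ISC, was not called.

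Other genes reported for reserve or label-retaining cells were, in the mean of the enteroendocrine classes, called in shares near those of all genes. Of 8 tested, 3 were higher (beside 27.4%), 2 lower (beside 18.7%) and 3 not called, with a median of -0.02. In EEC-PRE alone 4 of 8 were higher, beside 13.6% of all genes, and 2 lower, beside 10.1%. In TUFT 5 of 8 were higher, beside 15.4%, and 2 lower, beside 13.7%. Values below are for the mean of the enteroendocrine classes. Cdkn1c, which codes for the cyclin-dependent kinase inhibitor p57, had 119 and 109 CPM in the enteroendocrine classes and 1.53 and 2.39 CPM in ISC. Prox1, a homeobox factor of the secretory lineage, had 132 and 168 CPM in the enteroendocrine classes and 7.13 and 9.03 CPM in ISC. Cd24a, a surface glycoprotein, was higher at 1.18 ± 0.13. Krt19, a keratin, and Sox9 were lower at -2.31 ± 0.26 and -0.46 ± 0.16, though Sox9 stood at 61.9 and 110 CPM in the enteroendocrine classes against 110 and 106 CPM in ISC. Lrig1, Tert and Dll1 were not called.

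Cycle genes differed strongly in the same comparison. Of 12 proliferation genes 12 were lower, beside 18.7% of all genes, with Mki67 at 49.9 and 82.0 CPM in the enteroendocrine classes and 327 and 332 CPM in ISC. Of 11 cell cycle inhibitors 7 were higher, beside 27.4% of all genes, and 1 lower, beside 18.7%, led by Cdkn1c and by Gadd45a at 238 and 183 CPM in the enteroendocrine classes against 9.93 and 13.4 CPM in ISC, with Cdkn2c lower. Of 12 crypt base genes 11 were lower, with a median of -1.94, beside 18.7% of all genes called lower. Ascl2, a Wnt-driven transcription factor of the stem cell, had 6 UMIs in all enteroendocrine cells of both libraries and 34.6 and 20.8 CPM in ISC. Smoc2 had the smallest fall, at -0.48 ± 0.16, and Znrf3 was not called.

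**Figure D5:**
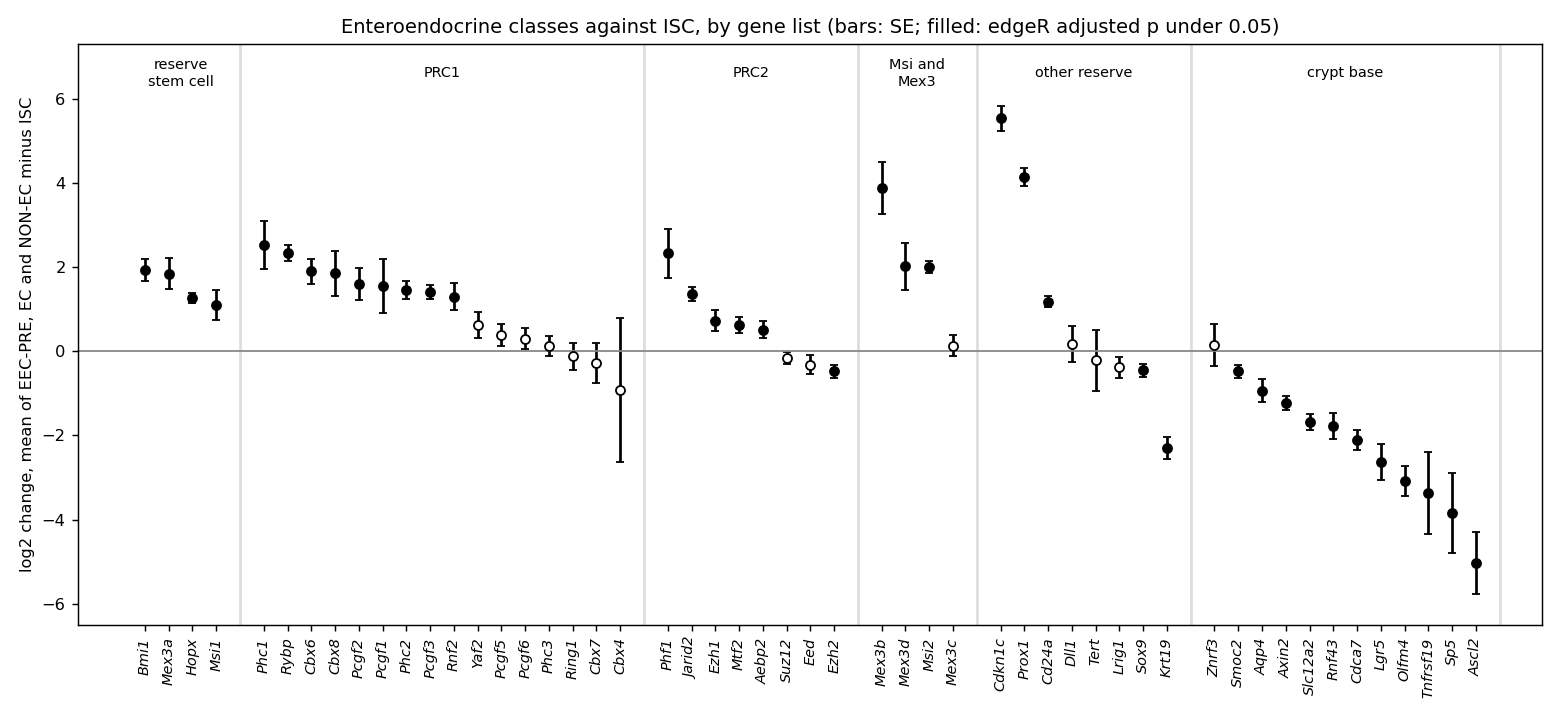
Log2 difference of the mean of the 3 enteroendocrine classes from ISC (y axis) for tested genes of 6 lists (x axis). Only genes with an SE under 2 are drawn. Points are edgeR estimates over 2 libraries, bars are SE and filled points have an adjusted p under 0.05. The 4 reserve stem cell genes lie between 1.10 and 1.94, and 11 of 12 crypt base genes lie below 0.

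Over the means of the 12 classes, the 4 genes followed one another with Pearson correlations of log2 CPM from 0.675 for Bmi1 and Hopx to 0.900 for Mex3a and Msi1. The points share libraries, and low levels carry counting error. Correlations of gene pairs in general were not computed, so these values do not set the 4 genes apart from others. Among 3775 genes ranked, Mex3a was most like Sox4, a transcription factor gene (r = 0.986 over 12 classes, 0.989 and 0.940 in the libraries), followed by Ddx42, Caprin1, Nono and Zmynd8. Bmi1 was most like Trim44, Rasa1, Neurod1, Crebbp and Dhx36 (r from 0.958 to 0.965). Hopx was most like Phf12, Smndc1, Zfp280d, Rbbp6 and Gapvd1 (0.952 to 0.975), and Msi1 was most like Nedd4, Gtf2i, Srsf11, Rbbp4 and Cnn3 (0.921 to 0.951). Neurod1, a factor of enteroendocrine differentiation, was the only one of these with a level near 0 in ISC, at 2.51 CPM beside 873 CPM in the enteroendocrine classes. The other 19 ranged from 31.0 to 216 CPM in ISC.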

How the data were processed

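Raw UMI counts were deposited for every barcode without a cell filter, made with Cell Ranger 3.0.2 and STAR on mm10, per the submitters' processing notes. A table from the authors lists the cells kept, with each cell's class and mitochondrial UMIs in percent, per the file headers. No source used here gives how classes were assigned or doublets treated, and no doublet caller was run.

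Counts were summed per class and library (24 sums) and fitted with edgeR 4.0.16 in R 4.3.3 (filterByExpr, quasi-likelihood test, class and library as terms, 11 residual degrees of freedom). P-values were adjusted by Benjamini-Hochberg over 10994 genes with a threshold of 0.05. TMM factors used genes whose average log2 CPM was 6 or more, a choice made in earlier work on these data. Single-library log2 values used a prior count of 0.125, that of the fit, and have no test; a prior count of 2 was used at first and replaced after values were seen. DESeq2 1.42.0 was an alternative. The fit was tested on simulated data for EEC-PRE against ISC. It recovered 12% of 2-fold and 60% of 4-fold changes set at 10 to 50 CPM. Over 50 CPM it recovered 70% and 98%. A gene of low level that was not called may therefore still differ.

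Shares used cells thinned to 2000 UMIs (scipy 1.17.1 for intervals); 375 and 901 shallower cells were left out. For an absent transcript 3 counts were taken as the limit. The named genes are the 4 genes, the 5 genes most like each over the 12 classes (average log2 CPM 5 or more), the called genes of each list with the largest and smallest changes, and class checks; others, such as Sox9 or list genes not called, were named after their values were seen. The genes and lists were chosen with earlier results of these data known. The alternatives were other normalizations, DESeq2, no filter, no library term, thinned cells, free RNA taken off and each library alone. Library size alone and leaving out or splitting off ISC with an enteroendocrine UMI were added after the data were seen.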

Additional observations from a re-analysis of the deposited data

Results flagged for a closer look

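The matrices also hold deep barcodes that the authors' cell table does not list, and none of the comparisons uses them. Among 1120 such barcodes of replicate 1 and 219 of replicate 2 with 3000 or more genes, all 4 transcripts were present above the limit that a count of 0 allows (0.204 and 1.24 unscaled CPM). Hopx stood at 145 and 99.1 CPM, Bmi1 at 13.3 and 10.8 CPM, Msi1 at 4.29 and 7.47 CPM and Mex3a at 4.63 and 4.98 CPM in replicates 1 and 2. Unlisted barcodes with a gene number in the range of listed cells gave 128 and 66.4 CPM of Hopx, 12.7 and 13.6 CPM of Bmi1, 11.5 and 9.20 CPM of Msi1 and 10.5 and 11.2 CPM of Mex3a.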

How the results depend on the processing

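Over the enteroendocrine comparisons, shares and ISC splits, 215 of 236 values under an alternative were kept. In the other 8 classes 304 of 352 were. Kept values held their direction and their side of the threshold, or moved within the spread of the libraries. The 236 include numbers of genes called, counted as kept within a set fold of the main number. They also include single-library shares and splits, which lie within that spread by construction. The counts are therefore no measure of stability. Cells thinned to 2000 UMIs carry fewer counts. They gave a log2 difference of 1.22 for Mex3a (adjusted p 0.107) and 0.87 for Msi1 (0.149) in the mean of the enteroendocrine classes, and -0.094 for Mex3a in EC, where it was not called before either. They called 3303 genes in the mean, 1596 in EEC-PRE, 2038 in EC and 2960 in NON-EC, against 5071, 2605, 3369 and 4588. Msi1 in the mean was 0.77 with TMM factors over all genes and 0.83 with DESeq2, neither called. Without the replicate block, Hopx was 1.13 in EEC-PRE and 1.00 in NON-EC, neither called, while no other enteroendocrine call of the 4 genes was lost. Msi1 in NON-EC passed with no filter (1.11, adjusted p 0.0442) and with library size alone (1.14, 0.0422). In single libraries EEC-PRE gave 1.09 to 1.73 for Bmi1 and 3.26 to 3.43 for Mex3a.

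Sign changes in the other classes were mostly of uncalled values near 0. Bmi1 became 0.71 in GOBLET, 0.30 in PANETH and 0.17 in PANETH-PRE in thinned cells, 0.046 and 0.017 in GOBLET and PANETH with free RNA taken off, and 0.082, 0.089 and 0.0042 in GOBLET, PANETH and SEC-PRO without ISC that held an enteroendocrine UMI. Hopx in SEC-PRO became -0.044 with TMM factors over all genes, -0.073 with DESeq2 size factors and with its test, and -0.018 in thinned cells. Hopx in PANETH, called before, was -0.23 in thinned cells, and the cause was not tested. With library size alone Hopx was -1.84 in PANETH and -0.023 in PANETH-PRE, and Msi1 was -2.08 in PANETH, where the median of all genes moved by -2.34 and -0.55 in PANETH and PANETH-PRE. Relative to that median Hopx stood 0.52 and 0.62 above it, beside 0.57 and 0.62 with TMM. Without thinning, the share in enteroendocrine cells minus that in ISC averaged 10.3 percentage points for Bmi1, 8.48 for Hopx and 6.84 for Mex3a. For Msi1 it was 0.24 points in replicate 1 and 3.03 in replicate 2. Split by any proliferation gene, the ISC share with minus without averaged 1.57 points for Hopx, -4.07 for Mex3a and -0.37 for Msi1. The libraries went opposite ways for Hopx and Msi1. Hopx was 28.5% with and 28.8% without in replicate 1, and 17.9% and 14.5% in replicate 2. Msi1 was 2.94% with and 5.48% without in replicate 1, and 2.96% and 1.16% in replicate 2. Depth limits GOBLET, where 0 UMIs of Mex3a and Msi1 allow up to 19.5 and 12.9 unscaled CPM in replicates 1 and 2.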
